A study of Anser anser with 16 samples.

Results

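The genes described here encode proteins that tether, dock, prime and fuse secretory vesicles with the cell membrane, measured by RNA sequencing in the pituitary and the hypothalamus of geese. Members were taken by gene name, as the synaptotagmins (SYT) and synaptotagmin-like genes (SYTL), the syntaxins (STX) and syntaxin-binding genes (STXBP), the VAMP and SNAP families, RAB27, the UNC13, RIMS, CADPS, complexin (CPLX), synapsin (SYN), SV2 and DOC2 families, SYP, NSF, and every name that starts with RAB3. This gave 72 of the 9810 named genes in the authors' comparison tables, which hold 12486 of the 19448 genes counted. All 72 are annotated as protein coding, and all 72 passed the filter on low counts, but those tables already hold only genes that were past a filter of the authors. The name rule reaches beyond exocytosis. The 10 members RAB30 to RAB39 match it by their letters only, although RAB37 among them is a GTPase of secretory granules. In mammals 5 syntaxins (STX6, STX7, STX8, STX17 and STX18) work at the Golgi, endosomes, endoplasmic reticulum or autophagosomes. Both sets were thus kept apart.

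Regulated secretion runs on SNARE proteins. A syntaxin and a SNAP protein on the cell membrane zip together with a VAMP protein on the vesicle, synaptotagmins sense the calcium that triggers fusion, and UNC13, RIM, CAPS and RAB proteins bring vesicles to a releasable state. Neurons use this machinery for small synaptic vesicles that release transmitter within active zones. Endocrine cells of the pituitary use related proteins, often other paralogues of the same families, for dense-core granules that hold peptide hormones. Roles given below are those known from mammals.

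All 16 libraries came from male geese of the W33 strain of White Kołuda geese at day 108, reared from day-old on deep litter and later on free range under oat fattening. With the number in a title read as the bird, the pituitary and the hypothalamus of the same 8 birds were sequenced. Birds 33, 37, 38 and 40 had a low and birds 49, 50, 52 and 54 a high growth rate, which gives 4 groups of 4 libraries (pituitary low, pituitary high, hypothalamus low, hypothalamus high). The study was set up to ask which hormonal changes of the axis go with growth rate. The basis on which a bird counted as low or high is not given here.

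Library totals were 8543585 to 14456667 counts in the pituitary and 9186728 to 18068056 in the hypothalamus. The labelled tissues carried their own markers. The summed level of 7 measured endocrine markers (POMC, PRL, CGA, POU1F1, TBX19, NR5A1 and AVPR1B) was 51533 to 120682 CPM (counts relative to the scaled total of the library) in pituitary libraries and 100.004 to 214 CPM in hypothalamus libraries. The sum of 11 neuronal markers that are no members was 789 to 1035 CPM in the pituitary and 4257 to 5354 CPM in the hypothalamus. Sums of 5 astrocyte markers were 41.1 to 147 CPM against 2799 to 7615 CPM, and sums of 2 myelin genes 37.1 to 187 CPM against 1636 to 5275 CPM. None of these marker genes was at 0 in all libraries of a tissue. These endocrine, neuronal, astrocyte and myelin sums thus differed between the tissues along with the members. Other markers overlapped, pituitary against hypothalamus: microglia at 26.7 to 136 against 78.6 to 261 CPM and skeletal muscle at 28.3 to 929 against 47.2 to 69.0 CPM. AGRP, of arcuate neurons, overlapped too (0.766 to 56.4 against 2.28 to 30.3 CPM). The part of other cell types in the differences below was not tested. In bulk tissue, fewer cells of a type and less RNA per cell cannot be told apart.

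Exocytosis genes took a larger share of the hypothalamus libraries. The 72 members held 0.261 to 0.302% of pituitary counts (mean 0.285 ± 0.0132%, SD, n = 8) and 0.861 to 0.994% of hypothalamus counts (mean 0.923 ± 0.0469%, SD, n = 8), so the ranges did not overlap. A gene was called different between tissues when edgeR's quasi-likelihood test gave an adjusted p below 0.05 (Benjamini-Hochberg over 14394 genes) and the fold was at least 2. By that rule 30 members (41.7%) were higher in the hypothalamus, where 19.5% of all genes were, and 6 members (8.33%) were higher in the pituitary, where 14.9% of all genes were. The other 36 were not called, and 34.4% of all genes were called in either direction. The counts by role below stand against these same shares of all genes. At any fold, 65 members (90.3%) had an adjusted p below 0.05 in edgeR's test, against 76.3% of all genes. The median log2 difference of the members, pituitary minus hypothalamus, was -0.75, and that of all genes tested was 0.06. In 48 members (66.7%) the 8 pituitary and 8 hypothalamus values did not overlap, against 49.2% of all genes. In a separate count that pairs the tissues of a bird, 43 members (59.7%) were higher in the hypothalamus of 8 of 8 birds, against 32.2% of all genes, and 13 (18.1%) were higher in the pituitary of 8 of 8 birds, against 34.4%.

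**Figure D1:**
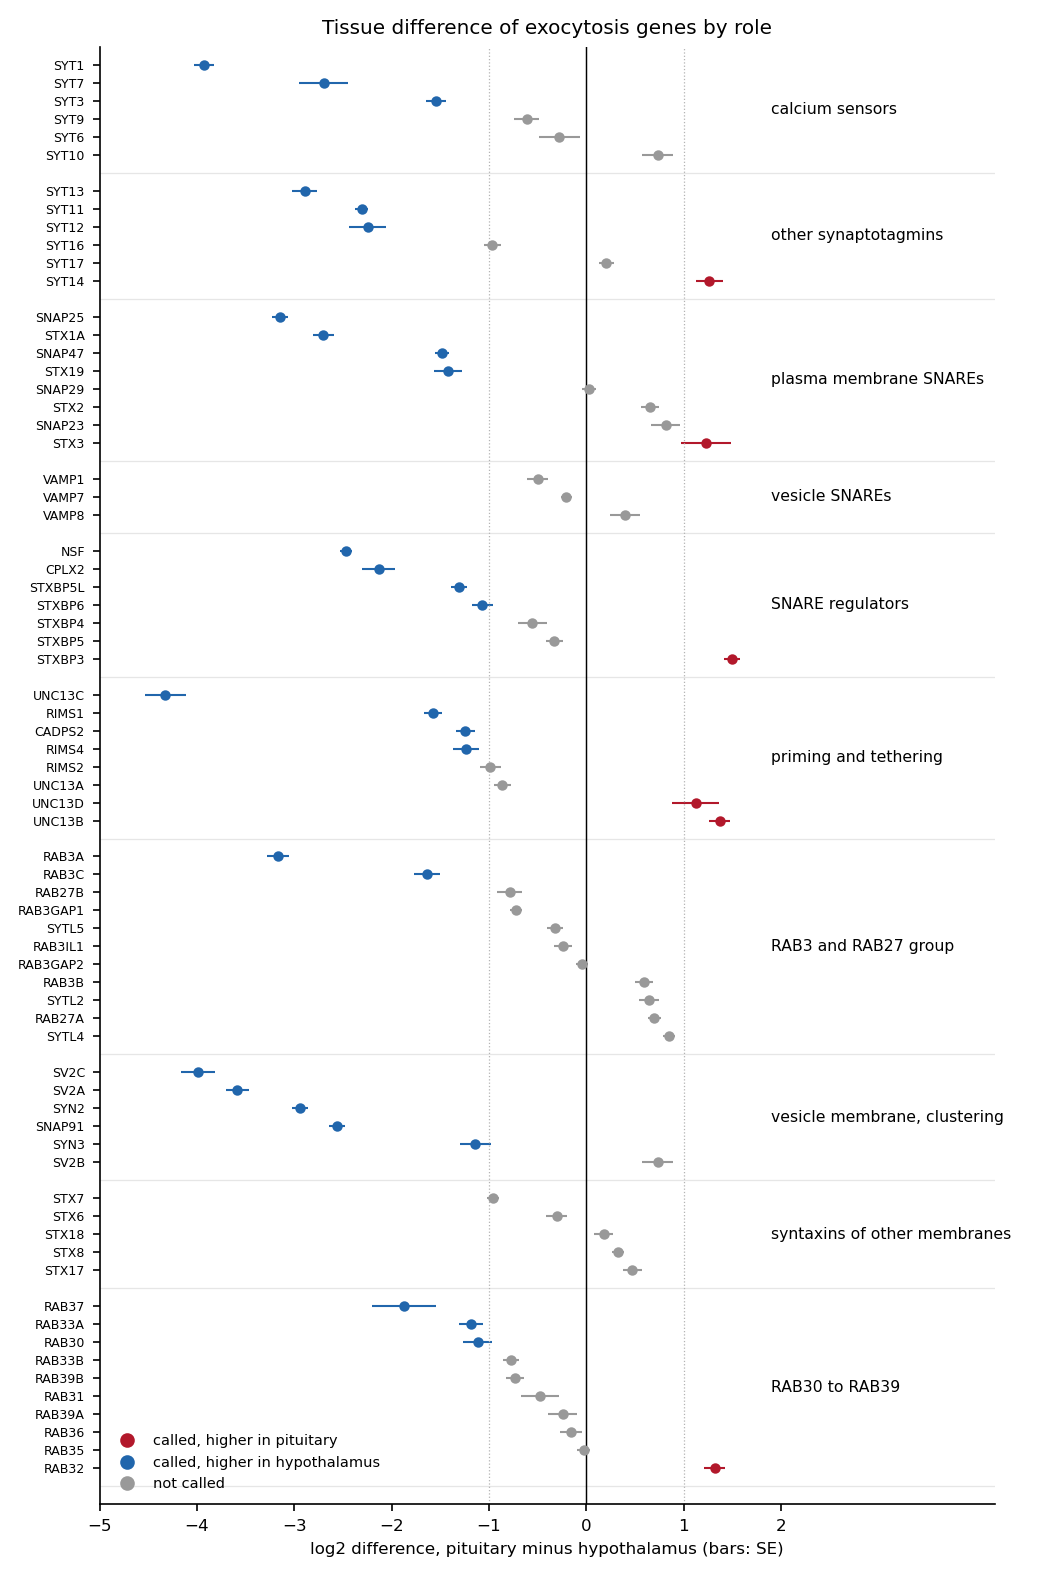
Log2 difference between tissues (x axis, pituitary minus hypothalamus, with its standard error from edgeR's quasi-likelihood fit over 16 libraries) of the members, grouped by role (y axis). Vesicle membrane proteins such as SV2C (-3.99) and the neuronal membrane SNARE SNAP25 (-3.15) lie far to the hypothalamus side, while the syntaxins of other membranes and the vesicle SNAREs VAMP1, VAMP7 and VAMP8 lie within 1 log2 unit of 0.

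SNAP25 and STX1A, SNAREs of the neuronal cell membrane, were much lower in the pituitary. SNAP25, which gives a pair of the helices of the fusion complex, ran from 67.5 to 92.7 CPM (median 80.9) in the pituitary and from 602 to 795 CPM (median 709) in the hypothalamus. STX1A, a neuronal syntaxin, ran from 20.1 to 39.2 CPM (median 32.9) and from 182 to 230 CPM (median 207) in the same order. For neither gene did any pituitary library reach the lowest hypothalamus library. The log2 difference was -3.15 ± 0.08 (SE) for SNAP25 (edgeR adjusted p = 1.65e-14) and -2.70 ± 0.11 for STX1A (1.76e-12). SNAP25 (ENSACDG00005008851) lies at 4568618 to 4630597 on scaffold KZ155859.1 of the assembly used by the authors.

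Of 9 genes grouped here as cell membrane SNAREs, SNAP29 and SNAP47 included, 5 were higher in the hypothalamus and 1 in the pituitary. SNAP47 (-1.48 ± 0.07) and STX19 (-1.42 ± 0.14) were among the former, with smaller differences. STX3, a syntaxin of apical membranes and of ribbon synapses, was the member of the role called higher in the pituitary, at 3.33 ± 1.12 CPM against 1.42 ± 0.507 CPM (SD, n = 8 each; log2 1.23 ± 0.26, edgeR adjusted p = 0.000462). SNAP23, the SNAP25 relative of non-neuronal cells, was at 3.69 to 5.74 CPM in the pituitary and 1.83 to 2.98 CPM in the hypothalamus. Its log2 difference of 0.81 ± 0.15 stayed under 2-fold, as did that of STX2 (0.65 ± 0.09). SNAP29, which serves several intracellular membranes, differed by 0.03 ± 0.07 and turned to -0.03 under relative log expression scaling.

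VAMP1, VAMP7 and VAMP8, the vesicle SNAREs with a named gene in the main table, differed by less than 2-fold between tissues. VAMP1 ran from 50.9 to 87.5 CPM (median 66.5) in the pituitary and from 70.4 to 122 CPM (median 90.0) in the hypothalamus, so the tissues overlapped. VAMP7 and VAMP8, SNAREs of late endosomes, lysosomes and secretory granules, overlapped as well. The log2 difference was -0.50 ± 0.11 for VAMP1, -0.20 ± 0.06 for VAMP7 and 0.40 ± 0.15 for VAMP8. In the assembled transcripts VAMP8 was at 0.11 (edgeR adjusted p = 0.656). VAMP2, a main vesicle SNARE of synapses, was matched by 3 genes of the assembled transcripts. The most abundant of them had a log2 difference of -2.37 ± 0.18 (edgeR adjusted p = 1.18e-07).

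Among the calcium sensors, SYT1 set the tissues widest apart. SYT1 is the fast sensor of synaptic release, and its gene (ENSACDG00005004904) lies at 20677 to 295123 on scaffold KZ156012.1. Its level ran from 31.8 to 43.3 CPM (median 40.04) in the pituitary and from 469 to 726 CPM (median 569) in the hypothalamus, a 15.2-fold difference (log2 -3.92 ± 0.10, edgeR adjusted p = 2.49e-14). SYT7, a slower sensor with high calcium affinity that also acts in endocrine granule release, ran from 7.23 to 31.1 CPM (median 17.2) and from 102 to 149 CPM (median 108; log2 -2.70 ± 0.25, edgeR adjusted p = 5.31e-08). The SYT7 ranges stayed apart, although its pituitary values spread over a wider fold than those of SYT1. SYT3 was lower in the pituitary too (-1.54 ± 0.11), which makes 3 of 6 sensors. SYT9 (-0.61 ± 0.13), SYT6 (-0.28 ± 0.21) and SYT10 (0.73 ± 0.16) were not called, and SYT10 fell on the other side of 0 in the de novo assembly quantified with Salmon (-1.11).

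Synaptotagmins that are not known as fast calcium sensors split by gene. SYT13 (-2.89 ± 0.13), SYT11 (-2.31 ± 0.07) and SYT12 (-2.25 ± 0.19) were higher in the hypothalamus. SYT14, a member without the calcium-binding residues of SYT1, was higher in the pituitary, with 18.4 to 31.7 CPM (median 20.8) against 6.61 to 13.04 CPM (median 8.80). Its 8 pituitary values all lay above its 8 hypothalamus values (log2 1.26 ± 0.14, edgeR adjusted p = 3.55e-07), but its assembled transcripts gave 0.43 with an edgeR adjusted p of 0.386. SYT17 (0.21 ± 0.08) and SYT16 (-0.96 ± 0.09) were not called, the latter just inside 2-fold and past it under relative log expression scaling (-1.02).

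Of the 8 chaperones and regulators of the SNARE cycle 5 were higher in the hypothalamus and 1 in the pituitary. NSF, the ATPase that takes used SNARE complexes apart, ran from 132 to 163 CPM (median 145) in the pituitary and from 717 to 887 CPM (median 798) in the hypothalamus. The ranges were separate (log2 -2.47 ± 0.06, edgeR adjusted p = 2.27e-14). CPLX2, a complexin that clamps and assists fusion, STXBP5L, a tomosyn, and STXBP6 (amisyn) were higher in the hypothalamus as well, at -2.13 ± 0.17, -1.31 ± 0.08 and -1.07 ± 0.11. STXBP3 (Munc18-3), known for granule and transporter exocytosis outside neurons, went the opposite way. It ran from 65.0 to 86.7 CPM (median 77.3) in the pituitary and from 22.4 to 32.7 CPM (median 26.1) in the hypothalamus, with no overlap (log2 1.502 ± 0.08, edgeR adjusted p = 8.67e-11). This was the largest difference of the 6 members higher in the pituitary, and the gene (ENSACDG00005003910) lies at 1507222 to 1530290 on scaffold KZ155881.1. STXBP4 and STXBP5 were not called.

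The UNC13 family, whose proteins prime vesicles by opening syntaxin, was divided between the tissues. UNC13B (Munc13-2) ran from 102 to 146 CPM (median 126) in the pituitary and from 39.5 to 63.3 CPM (median 45.2) in the hypothalamus. UNC13C (Munc13-3), best known from the cerebellum, ran from 2.02 to 5.86 CPM (median 3.13) and from 53.4 to 94.9 CPM (median 66.3). UNC13A (Munc13-1), the main primer of brain synapses, ran from 56.7 to 92.7 CPM (median 76.1) and from 116 to 169 CPM (median 139). All 3 genes kept the tissues apart without overlap, UNC13B with the pituitary above and the others with the hypothalamus above. Log2 differences were 1.37 ± 0.11 for UNC13B (edgeR adjusted p = 6.45e-09), -4.32 ± 0.21 for UNC13C (2.29e-11) and -0.86 ± 0.09 for UNC13A (1.83e-07, under 2-fold). In the assembled transcripts UNC13A was at -0.085 (edgeR adjusted p = 0.568). The UNC13C difference, 20.0-fold, was the largest of the 72 members. UNC13D (Munc13-4), a primer of lysosome-related granules in blood cells, was at 7.20 ± 2.77 CPM in the pituitary and 3.34 ± 0.777 CPM in the hypothalamus (SD, n = 8 each; log2 1.12 ± 0.24, edgeR adjusted p = 0.000435). The UNC13D call was lost in the assembled transcripts (0.48) and, at 0.97, without birds 38, 40 and 50. UNC13B (ENSACDG00005017507) lies at 186454 to 396569 on scaffold KZ156177.1 and UNC13C (ENSACDG00005009316) at 3293959 to 3508070 on scaffold KZ155857.1.

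RIMS1 (-1.58 ± 0.10) and RIMS4 (-1.24 ± 0.13), of the family that ties vesicles to calcium channels, were higher in the hypothalamus. CADPS2 (-1.24 ± 0.09), which primes dense-core granules, was so too, with 78.5 to 121 CPM against 33.4 to 47.6 CPM in the pituitary. RIMS2, a RIM of endocrine cells and synapses, stood at -0.99 ± 0.11, just under 2-fold, and at -1.04 under relative log expression scaling. It reached -3.87 in the assembled transcripts.

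**Figure D2:**
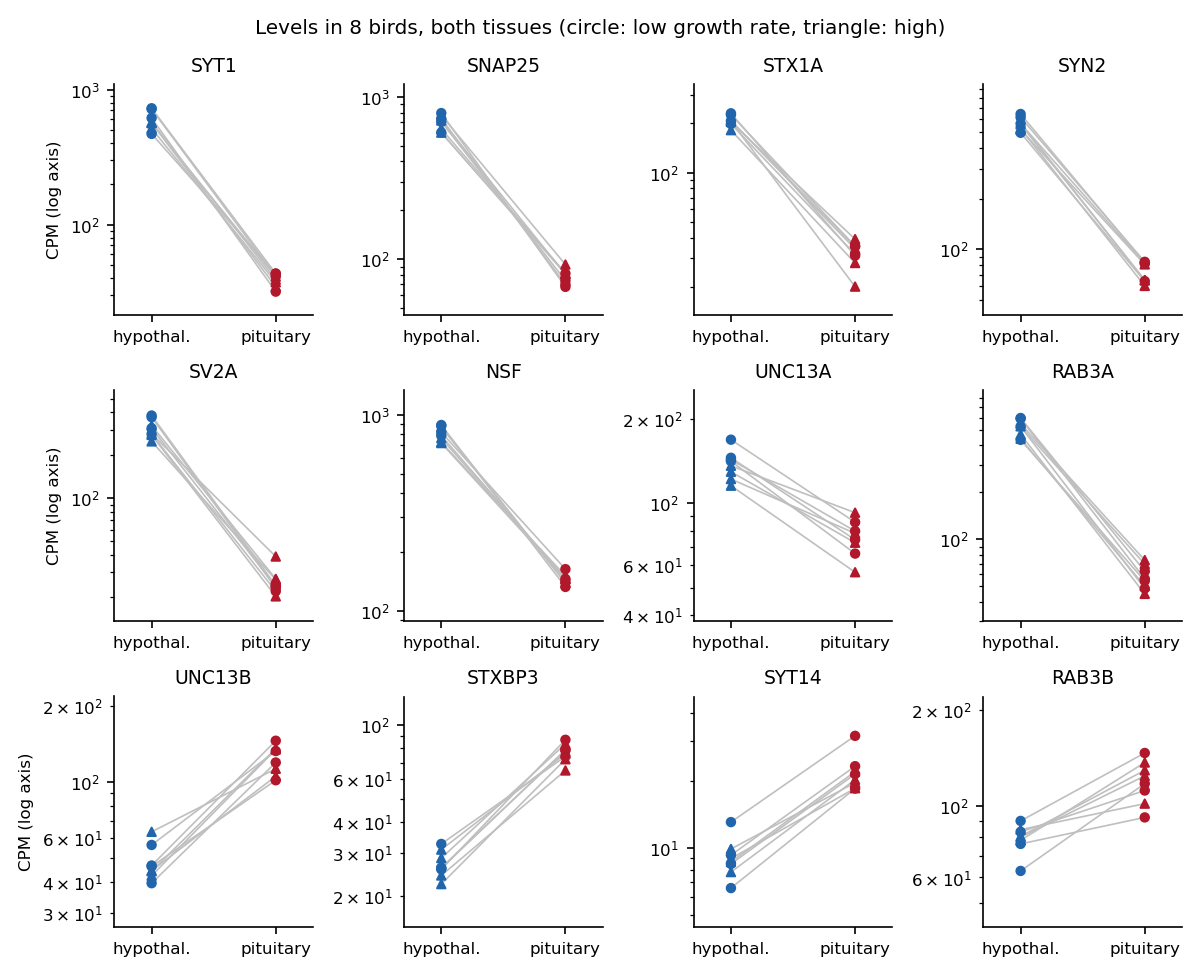
Level in CPM (y axis, log scale, a separate range per gene) of 12 members in the hypothalamus and the pituitary (x axis), with a line joining both tissues of a bird, circles for low and triangles for high growth rate. The neuronal genes stand higher in every hypothalamus library, for SYT1 469 CPM or more against 43.3 CPM or less, while UNC13B and STXBP3 stand higher in every pituitary library.

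RAB3 and RAB27 are the small GTPases that mark secretory vesicles for docking, and within each family the paralogues stood in different proportion in the 2 tissues. RAB3A, the main RAB3 of synapses, ran from 44.8 to 73.7 CPM (median 55.1) in the pituitary and from 433 to 598 CPM (median 528) in the hypothalamus. RAB3B, known from the anterior pituitary and other secretory tissues, ran from 92.3 to 147 CPM (median 121) and from 62.9 to 90.0 CPM (median 80.4). RAB3A thus lay lower and RAB3B higher in the pituitary, each without overlap. The log2 difference was -3.17 ± 0.12 for RAB3A (edgeR adjusted p = 8.05e-13) and 0.60 ± 0.09 for RAB3B (2.68e-05, under 2-fold). RAB3C (-1.63 ± 0.13) was higher in the hypothalamus. RAB27A, the RAB27 of many secretory cells, was at 31.0 to 39.2 CPM in the pituitary and 18.8 to 24.2 CPM in the hypothalamus (0.70 ± 0.07). RAB27B leaned to the hypothalamus (-0.79 ± 0.12), with no value of either gene shared between tissues.

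The members that are effectors of RAB27 or regulators of RAB3 differed by less than 2-fold in the main table. In the assembled transcripts RAB3IL1, a RAB3 regulator, was at 1.16. SYTL4 (granuphilin), which docks insulin and pituitary hormone granules, was at 69.6 to 86.4 CPM in the pituitary and 37.7 to 46.0 CPM in the hypothalamus (log2 0.85 ± 0.06, edgeR adjusted p = 4.83e-09). SYTL2 (0.64 ± 0.11) lay on the same side and SYTL5 (-0.32 ± 0.09) on the other. RAB3GAP1, a subunit of the complex that switches RAB3 off, differed by -0.72 ± 0.06, and its partner subunit RAB3GAP2 by -0.04 ± 0.06. In all, 2 of 11 members of this role (18.2%) were called, RAB3A and RAB3C, both higher in the hypothalamus. That is near the 19.5% of all genes called in that direction.

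Proteins of the synaptic vesicle membrane and of vesicle clustering were nearly all on the hypothalamus side, 5 of 6 genes. SV2A, the vesicle glycoprotein that binds the antiepileptic levetiracetam, ran from 20.3 to 38.8 CPM (median 24.0) in the pituitary and from 250.3 to 381 CPM (median 297) in the hypothalamus. SV2C ran from 0.957 to 2.40 CPM (median 1.76) and from 18.6 to 34.2 CPM (median 28.4). SYN2, a synapsin that ties vesicles into the reserve pool, ran from 60.4 to 84.1 CPM (median 73.3) and from 496 to 642 CPM (median 559). The 3 ranges did not touch. Log2 differences were -3.59 ± 0.12 for SV2A (edgeR adjusted p = 2.49e-13), -3.99 ± 0.17 for SV2C (6.30e-12) and -2.94 ± 0.08 for SYN2 (6.39e-14). SNAP91 (AP180), a clathrin adaptor for vesicle retrieval that is no SNARE despite its name, differed by -2.56 ± 0.08 and SYN3 by -1.14 ± 0.16. SV2B leaned to the pituitary (0.73 ± 0.16) and its ranges overlapped, with 18.4 to 53.6 CPM against 18.9 to 28.1 CPM.

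Apart from RAB37, a GTPase of secretory granules, the syntaxins of other membranes and the RAB30 to RAB39 genes are no exocytosis genes in the narrow sense. Of 5 syntaxins of other membranes 0 were called in the main table, with differences from -0.96 (STX7) to 0.48 (STX17). STX7, an endosomal syntaxin, passed 2-fold under relative log expression scaling (-1.02) and in the assembled transcripts (-1.21). STX17 was at 0.07 in the assembled transcripts. Of the 10 RAB30 to RAB39 genes, RAB37 (-1.87 ± 0.33), RAB33A (-1.18 ± 0.12) and RAB30 (-1.12 ± 0.15) were higher in the hypothalamus. RAB32, a GTPase of lysosome-related organelles, was higher in the pituitary, at 10.003 to 13.4 CPM against 3.42 to 6.01 CPM (log2 1.32 ± 0.11, edgeR adjusted p = 1.28e-08). Together 40% of the RAB30 to RAB39 genes were called, near the 34.4% of all genes.

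Paralogues of a family were then set against each other inside each library, since a ratio within a library does not depend on its scaling. The log2 ratio itself carries the lengths of both genes, so only its difference between the tissues of a bird was read. Of 12 pairs tested by a two-sided exact sign-flip permutation test over 8 birds, 11 had an adjusted p below 0.05 (Benjamini-Hochberg over the 12 pairs). For 10 of them all 8 birds pointed the same way, with an exact permutation p of 0.0078, the smallest that 8 birds allow, and an adjusted p of 0.0094. These pairs draw on the same counts as the tissue differences above and are no separate evidence.

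The RAB3A to RAB3B ratio fell by 3.76 ± 0.333 log2 units from hypothalamus to pituitary (SD over 8 birds), from a mean of 2.70 to a mean of -1.07. SNAP23 gained 3.92 ± 0.338 units on SNAP25, and SV2B 4.29 ± 0.840 units on SV2A. UNC13B gained 2.24 ± 0.353 units on UNC13A. That ratio ran from -1.88 to -1.03 in the hypothalamus and from 0.185 to 1.26 in the pituitary, without overlap. SYN3 gained 1.77 ± 0.303 units on SYN2 and RAB27A 1.498 ± 0.410 units on RAB27B. SYTL4 gained 1.17 ± 0.306 units on SYTL5 and RIMS2 0.597 ± 0.209 units on RIMS1, while RAB3A lost 1.54 ± 0.303 units against RAB3C. The pairs were not tested in the assembled transcripts. There the tissue difference was -3.87 for RIMS2 and -2.40 for RIMS1, which is the opposite direction for that pair. UNC13B (1.09) and UNC13A (-0.085) kept their direction there but lay closer together than in the main table. SYTL4 (0.80) and SYTL5 (-0.75) lay further apart there. SYT7 gained on SYT1 in 7 of 8 birds, by a mean of 1.09 ± 0.762 units over all 8 (exact permutation p = 0.0156, adjusted p = 0.0170). Single birds ran from -0.012 to 2.32 units, and without birds 38, 40 and 50 the mean was 0.685 units. For SV2C against SV2A the mean difference was -0.317 ± 0.695 units, with a higher ratio in the pituitary in 1 of 8 birds (exact permutation p = 0.25, adjusted p = 0.25). Without bird 54 that mean was -0.467, with an adjusted p of 0.0170 by the exact permutation test over 7 birds. Reads shared between close paralogues could be split between them by the counting, whose rule for such reads the sources do not state.

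**Figure D3:**
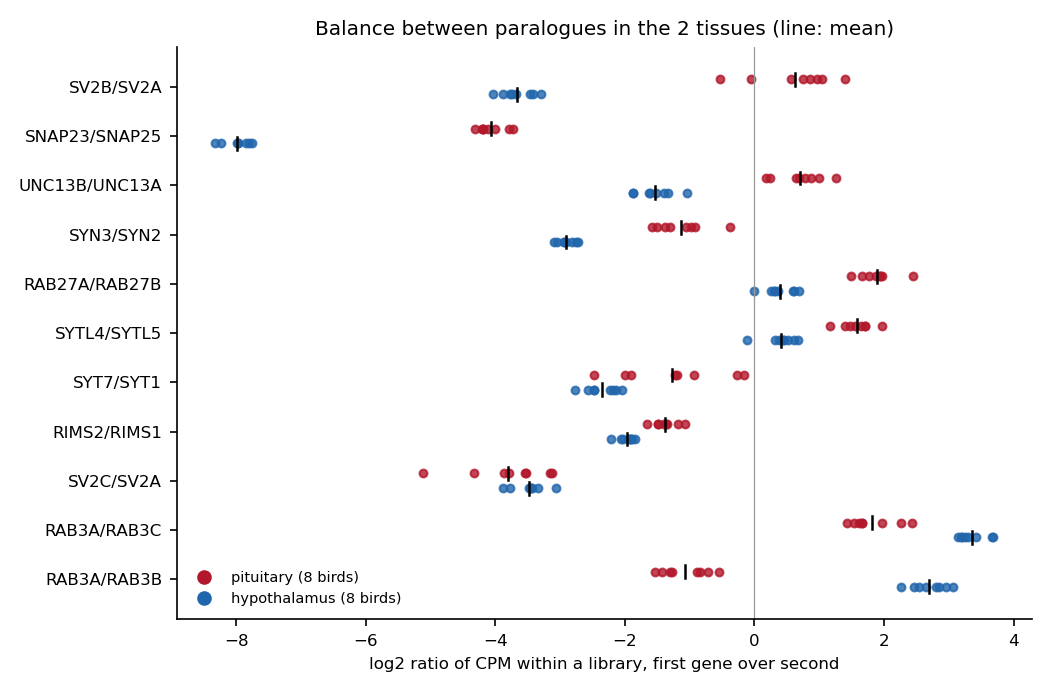
Log2 ratio of CPM of the first over the second gene within a library (x axis) for 11 pairs of paralogues (y axis), with a point per library and a line at the mean of 8 birds. Pituitary and hypothalamus points stand apart for RAB3A/RAB3B, UNC13B/UNC13A and SNAP23/SNAP25 and overlap for SV2C/SV2A.

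Genes that work beside the members were counted in 8 lists. Of 93 genes listed, 74 were tested. Of these, 30 were higher in the hypothalamus and 6 in the pituitary, with a median log2 difference of -0.71. For these counts and those of each list below, the share over all genes was 19.5% higher in the hypothalamus and 14.9% higher in the pituitary. No list was tested as a set. Among scaffolds of the active zone 6 of 12 were higher in the hypothalamus, such as APBA2 (-2.80 ± 0.06), an adaptor protein, PPFIA4 (-2.32), a liprin, and APBA1 (-1.36), whereas the liprin PPFIA1 (1.46) was higher in the pituitary. NAPB (-3.04) and NAPG (-1.04), the attachment proteins that recruit NSF, were both higher in the hypothalamus, as were RPH3A (-3.34), a RAB3A effector, and MYO5A (-1.11), a vesicle motor. Of 9 other vesicle membrane genes 4 were higher in the hypothalamus, namely SYNGR3 (-3.53), SYNPR (-1.80), SYNGR1 (-1.52) and SCAMP5 (-1.39).

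Of 22 genes of endocytic retrieval 11 were higher in the hypothalamus, led by the dynamins DNM3 (-3.17) and DNM1 (-2.16), the endophilin SH3GL2 (-2.80) and the uncoating cofactor DNAJC6 (-2.10). SYNGR2 (1.35) and ITSN2 (1.00) were the genes of these 2 lists called higher in the pituitary and are named for that reason, after their values were seen. Calcium channel subunits gave 4 of 9 higher in the hypothalamus, CACNA2D3 (-1.90), CACNA2D2 (-1.86), CACNA1E (-1.16) and CACNB3 (-1.03). The 9 exocyst subunits, which tether vesicles to the cell membrane in most cells, had 0 calls and a median of 0.11. Dense-core granule genes leaned the opposite way, with 3 of 9 higher in the pituitary, CHGA (6.90 ± 0.19), SCG3 (2.48) and CHGB (1.92), granins that load hormone granules, and 1 higher in the hypothalamus, the prohormone convertase PCSK2 (-2.33).

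The length of the loci is given as a description, with no test. The median span from start to end of the members higher in the hypothalamus was 39.4 kb (30 genes), against 17.5 kb for the 1871 other genes of the authors' tables called in that direction. The 6 members higher in the pituitary had a median of 20.1 kb, against 14.8 kb for 1686 other genes, and the 36 members not called 20.0 kb, against 13.7 kb for 8856 other genes. A few members lie close together with opposite tissue differences. STX3 and SYT7 are 138715 bases apart on scaffold KZ156146.1 (1.23 and -2.70), and RAB27A and UNC13C 142820 bases apart on scaffold KZ155857.1 (0.70 and -4.32).

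Growth rate moved no member past the test. In the pituitary 0 of 72 members and 0% of 13471 genes had an adjusted p below 0.05 in edgeR's test of high against low growth rate, with a smallest adjusted p among members of 1.00. In the hypothalamus it was 0 of 72 members and 0% of 13695 genes (smallest 0.998), and for the growth-by-tissue interaction 0 of 72 and 0% of 14394 (smallest 1.00). DESeq2 and limma voom also called 0 members in each comparison. Unadjusted edgeR p-values below 0.05 were found for 4 members (5.56%) in the pituitary against 1.97% of all genes, and for 4 members (5.56%) in the hypothalamus against 3.33% of all genes. For the interaction they were found for 2 members (2.78%) against 1.43% of all genes. Log2 differences, high minus low, ran from -0.54 to 0.47 in the pituitary (median -0.024, all genes 0.004) and from -0.38 to 0.41 in the hypothalamus (median -0.052, all genes -0.005). The authors' deposited comparisons called 51 genes for growth rate in the pituitary and 62 in the hypothalamus. By the authors' adjusted p, 0 of 72 members were below 0.05 there. The smallest values among members were 0.361 in the pituitary and 0.763 in the hypothalamus. The pathway lists above also held 0 genes called for growth rate by edgeR in either tissue.

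The member with the smallest pituitary p was VAMP1, the vesicle SNARE. Scaled within the pituitary, it was at 49.5, 60.8, 49.3 and 48.1 CPM in low-growth birds 33, 37, 38 and 40 and at 68.9, 82.2, 71.3 and 64.5 CPM in high-growth birds 49, 50, 52 and 54. Every high-growth value lay above every low-growth value, the 1 member (1.39%) of which this held in the pituitary, against 1.45% of all genes. The log2 difference was 0.47 ± 0.11 (edgeR adjusted p = 1.00, unadjusted 0.00222) and ran from 0.39 to 0.55 when single birds were left out. Without birds 38, 40 and 50 it was 0.31. SOX2, ALDH1A1 and S100B were the 3 measured of 4 listed markers of folliculostellate and stem-like cells. Their sum also kept the groups apart, at 593 to 1035 CPM in low-growth and 457 to 552 CPM in high-growth pituitaries. ALDH1A1 made up most of that sum and was the only marker of the 3 without overlap (521 to 942 against 395 to 504 CPM). SOX2 and S100B overlapped between the groups. Of 7 listed skeletal muscle markers 2 were measured, ACTA1 and TNNC2, and their sum was highest in bird 50 (929 CPM, next 206 CPM in bird 38), the bird with the highest VAMP1. Their part in the result was not tested.

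SYT10, a sensor of peptide vesicles in some neurons, had 41.3, 46.4, 28.8 and 49.5 CPM in low-growth pituitaries and 29.4, 21.4, 27.0 and 36.7 CPM in high-growth ones. VAMP8 had 16.7, 18.4, 22.3 and 26.6 CPM against 28.4, 30.5, 24.6 and 25.6 CPM. SNAP25 had 76.2, 69.1, 63.1 and 66.0 CPM against 76.9, 75.9, 86.7 and 76.9 CPM. In each of these 3 genes the groups overlapped, SYT10 tending lower and the others higher at high growth rate. Their log2 differences were -0.54 ± 0.20, 0.38 ± 0.16 and 0.21 ± 0.09, with unadjusted edgeR p of 0.0254, 0.0412 and 0.0492 and an adjusted p of 1.00 for each. SYT13 came next at 0.38 ± 0.23 (edgeR adjusted p = 1.00, unadjusted 0.127).

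UNC13A had the smallest hypothalamus p. Scaled within the hypothalamus, this primer was at 150, 152, 157 and 181 CPM in low-growth birds and at 124, 145, 130.0 and 138 CPM in high-growth birds. STXBP5 (tomosyn-1), an inhibitor of SNARE assembly, was at 101, 93.2, 85.7 and 80.2 CPM against 78.1, 76.9, 79.7 and 77.3 CPM. In both genes every high-growth value lay below every low-growth value, the 2 members (2.78%) without overlap in the hypothalamus, against 1.98% of all genes. The log2 differences were -0.25 ± 0.08 for UNC13A and -0.21 ± 0.08 for STXBP5, with unadjusted edgeR p of 0.0124 and 0.0262 and adjusted p of 0.998. In the assembled transcripts the UNC13A difference was -0.02.

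SV2C was at 35.7, 36.2, 32.8 and 28.99 CPM in low-growth hypothalami and at 24.2, 31.7, 27.0 and 19.8 CPM in high-growth ones. RAB27A was at 23.4, 21.9, 20.3 and 20.1 CPM against 25.8, 23.01, 25.3 and 25.8 CPM. SV2A was at 299, 403, 334 and 397 CPM against 267, 345, 302 and 296 CPM. All 3 genes overlapped between the groups, RAB27A tending higher and both SV2 genes lower at high growth rate. Log2 differences were -0.38 ± 0.14, 0.22 ± 0.09 and -0.24 ± 0.11, with unadjusted edgeR p of 0.0233, 0.0357 and 0.0590 and an adjusted p of 0.998 for each.

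**Figure D4:**
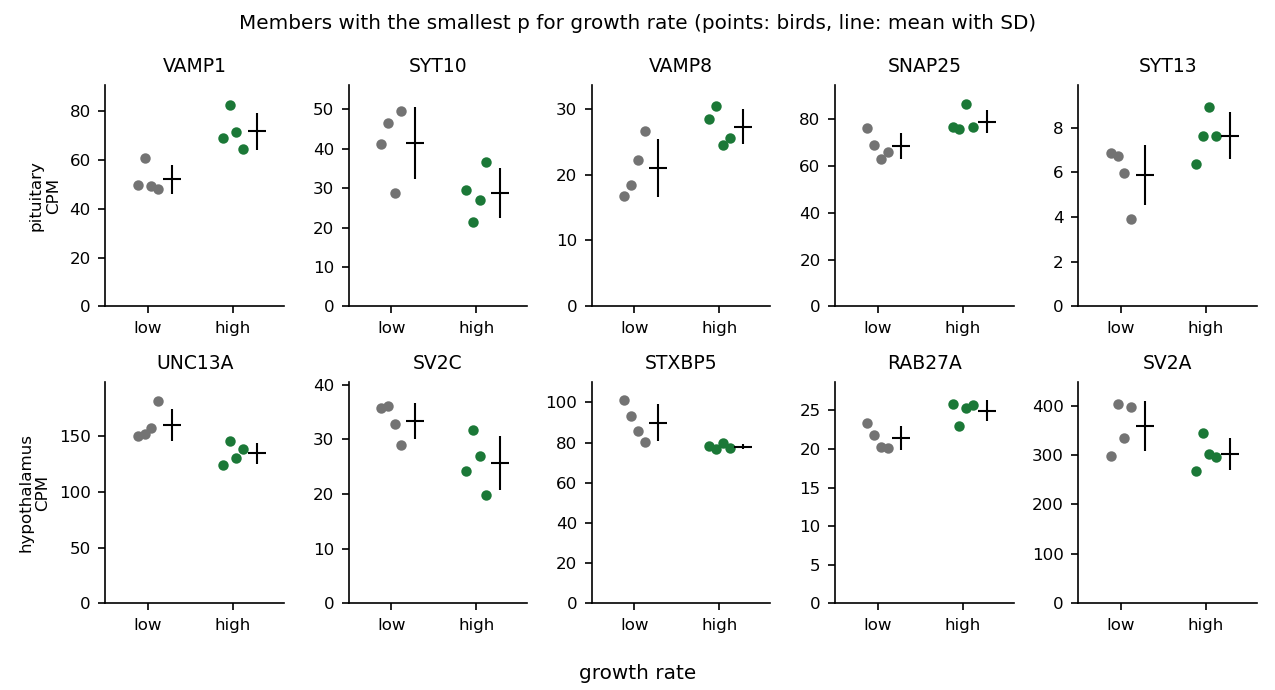
Level in CPM (y axis, from 0, scaled within the tissue) at low and high growth rate (x axis) of the 5 members with the smallest p in each tissue, with a point per bird and the mean with SD of 4 birds. VAMP1 in the pituitary and UNC13A and STXBP5 in the hypothalamus show no overlap between groups, and the other panels do.

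The growth difference itself was compared between tissues in the fit over all libraries. VAMP1 differed between them by 0.56 ± 0.21 log2 units, pituitary minus hypothalamus, and SV2A by 0.52 ± 0.21, with unadjusted edgeR p of 0.0181 and 0.0288 and adjusted p of 1.00. In the hypothalamus VAMP1 was at 98.7, 83.1, 131 and 93.0 CPM in low-growth birds and at 110, 83.7, 111 and 74.9 CPM in high-growth birds, with full overlap. The VAMP1 value was 0.19 without birds 38, 40 and 50 and ran from 0.39 to 0.72 when single birds were left out. SYT16 had the next smallest p (-0.31 ± 0.17, edgeR adjusted p = 1.00, unadjusted 0.0882).

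Members varied between birds about as much as other genes did. Spread was taken as the SD of log2 CPM over the 4 birds of a group, pooled over the 2 growth groups (root of the mean variance). Its median was 0.241 for members and 0.259 for all genes in the pituitary, and 0.176 and 0.184 in the hypothalamus. A few members spread widely in the pituitary. SYT7 had pituitary levels of 11.5, 17.5, 22.6 and 26.4 CPM in low-growth birds 33, 37, 38 and 40 and of 7.23, 31.1, 9.25 and 16.9 CPM in high-growth birds 49, 50, 52 and 54. RAB37, a GTPase of secretory granules, stood at 0.543, 2.14, 3.35 and 2.33 CPM and at 1.34, 4.88, 1.44 and 1.14 CPM in the same order. SYT6 stood at 9.62, 44.7, 34.4 and 26.5 CPM and at 21.8, 19.3, 28.5 and 29.2 CPM.

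The SYT7 and RAB37 values were highest in birds 38, 40 and 50, and SYT6 in birds 37 and 38. The same 3 pituitaries, of birds 38, 40 and 50, had higher levels of myelin genes and of AGRP than the other 5. The sum of MBP and CNP was 154, 149 and 187 CPM there and 37.1 to 70.1 CPM in the other 5, and AGRP, an appetite peptide gene of the arcuate nucleus, was at 30.1, 56.4 and 27.1 CPM against 0.766 to 3.03 CPM. The same 3 birds had hypothalamic AGRP levels of 12.4, 21.9 and 5.80 CPM, below their pituitary levels. Summed neuronal markers were at 838, 865 and 789 CPM in these 3 pituitaries and at 847 to 1035 CPM in the other 5. Astrocyte sums were higher there, at 130, 83.7 and 147 CPM against 41.1 to 81.3 CPM. By gene, GFAP and SLC6A11 were higher without overlap, while AQP4, SLC1A2 and GJA1 overlapped. GJA1, a large part of the sum, ran from 62.7 to 105 CPM there and from 30.7 to 65.9 CPM in the other 5. Microglia sums were higher in these 3 pituitaries too, at 113, 84.4 and 136 CPM against 26.7 to 61.8 CPM. Of the microglia genes only CX3CR1 overlapped. The part of other tissue in the SYT7 and RAB37 levels was not tested. SYT1 had 43.3, 31.8 and 34.6 CPM in these pituitaries, and the other 5 had 37.3 to 43.3 CPM. Without these 3 birds the tissue difference was -3.17 ± 0.22 for SYT7 and -3.95 ± 0.08 for SYT1, and the members higher in the pituitary numbered 5 in place of 6.

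**Figure D5:**
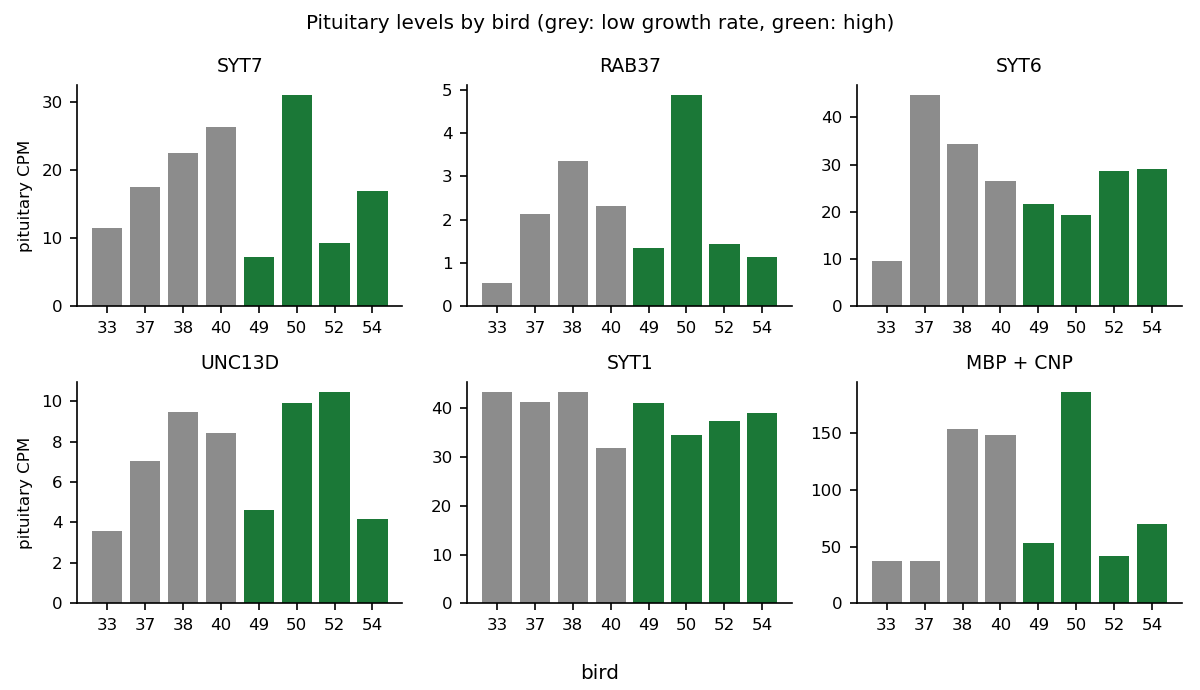
Pituitary level in CPM (y axis, from 0) of SYT7, RAB37, SYT6, UNC13D, SYT1 and the sum of 2 myelin genes in each bird (x axis, grey bars low and green bars high growth rate). SYT7, RAB37 and the myelin sum are highest in birds 38, 40 and 50, where SYT1 is 31.8 to 43.3 CPM, and it is 37.3 to 43.3 CPM in the other birds.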

How the data were processed

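The main table was the gene table with identifiers that start with ENSACDG, whose whole-number read counts per gene are used as deposited. A further gene table (ENSABRG identifiers) also holds deposited counts, and the de novo assembly holds estimated counts from Salmon, per the file names, which were rounded. Where several assembled genes had the same best protein match, only that with the highest mean count was used. The kallisto tables were not used here. In the authors' comparison tables the file headers name a fold ratio and its log2, a p-value and an adjusted p-value. The direction of that ratio is not named, so only the adjusted p-values were printed. RNA came from a column kit with RIN over 7 and libraries from TruSeq v2, per the labels' protocols. The submitters' processing notes name STAR, RSEM, FastQC, kallisto, Salmon and DESeq2 with no role or version. The only build named there is a pig assembly, so the assembly behind the coordinates, the strand setting and the treatment of shared reads are not given in the sources used here.

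Counts were filtered with filterByExpr, scaled by TMM and tested with edgeR 4.0.16 (R 4.3.3, limma 3.58.1, DESeq2 1.42.0 as an alternative), with 4 group means over 16 libraries for the tissues and the interaction, and 8 libraries for growth rate within a tissue. Standard errors came from the quasi-likelihood F statistic. Paralogue ratios used log2 CPM with a prior count of 2. The steps were tested on simulated data. CPM values were scaled over 16 libraries for the tissues and within the tissue for growth rate. Within groups, pairs of libraries had a chi-square per degree of freedom of 8.33 to 78.0, far above sampling noise, and were kept apart.

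The members and lists were chosen with earlier results of these data known. Values per library are given for the core release machinery, for up to 10 members per direction with the largest tissue difference called and a mean of at least 5 CPM in the higher tissue, and for the 5 (growth rate) or 3 (interaction) smallest p. In each pathway list up to 4 called genes with the largest difference are named. Other members named were chosen after their values were seen. The values of a few genes are not reported here.

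The number in a title was read as the bird and recurs in both tissues; no label states separate animals, so p-values measure the spread between these libraries. The deviations of same-numbered libraries from their group means correlated at 0.184 to 0.389, in 8 of 8 birds best with the own bird, so the numbers were taken to pair the tissues.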

Additional observations from a re-analysis of the deposited data

Results flagged for a closer look

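In groups of 4 birds, 88 groups of the named members were screened for a bird whose gap to the nearest other exceeded Dixon's critical share of the group's range, and 9 were found. Chance gives about 5% of groups. Levels are in CPM scaled over all libraries.

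Among hypothalami of low-growth birds, STXBP3 was high in bird 38 (32.7 CPM, the others 25.8 to 26.2) and UNC13A was high in bird 40 (169, the others 142 to 146). Among those of high-growth birds, STX1A was low in bird 49 (182, the others 204 to 208), RAB27A in bird 50 (21.6, the others 23.8 to 24.2) and SYT1 in bird 52 (515, the others 563 to 572), while UNC13B was high in bird 54 (63.3, the others 42.3 to 44.4). Among pituitaries of low-growth birds, VAMP1 was high in bird 37 (64.9, the others 50.9 to 53.0) and SYN2 was low in bird 38 (64.5, the others 82.1 to 84.1). Among pituitaries of high-growth birds, SNAP25 was high in bird 52 (92.7, the others 80.7 to 81.8). The cause of these values was not tested.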

How the results depend on the processing

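The 18 alternatives were other scalings, filters, tests and tables, single birds left out, and birds 38, 40 and 50 left out together. The members higher in the pituitary numbered 5 or 6, with 5 of the 65 found in the Salmon table and 5 without birds 38, 40 and 50. Those higher in the hypothalamus numbered 25 (of 61 found in the ENSABRG table) to 33 (DESeq2, relative log expression scaling, no filter). With single birds left out they numbered 6 and 30 to 32. The same call held in every alternative run for 34 of the 36 called members, the exceptions being SYT14 and UNC13D. Paralogue pairs were rerun in the main table only, with other prior counts, relative log expression scaling and birds left out. No other table was tried for them. The pairs called numbered 11 or 12 of 12, and without birds 38, 40 and 50 the 5 birds left cannot reach the threshold. Growth rate and its interaction called 0 members throughout. Over all genes DESeq2 called 5, 2 and 1 (pituitary, hypothalamus, interaction), the fit over 16 libraries 1 in the pituitary and the test on Salmon estimates called 49 for the interaction.

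Some members changed sign, none of them called in the main table. SNAP29 was at -0.0285 with DESeq2, -0.0275 with relative log expression scaling, -0.020 without the filter and -0.43 in the Salmon table, and ran from -0.0334 to 0.0658 with single birds left out. RAB35 ran from -0.0823 to 0.0093 with single birds left out. In the Salmon table RAB3IL1 was at 1.16, SYT10, at 0.73 in the main table, at -1.11 (edgeR adjusted p 1.43e-06) and SYT17 at -0.080. The cause was not tested.

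With the bird as a replicate block, 6 and 30 members were called, with 0 calls changed, and 0 for the interaction. Over all genes 4971 were called in place of 4948. No paired analysis was possible because of the design for growth rate within a tissue, where low and high birds share no bird number. Relative log expression scaling moved the median of all genes from 0.057 to 0.001. Counting depth, 4 birds a group and shared reads of paralogues limit small differences.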

Other observations

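Some well-known genes of release have no named gene in the main table. Of 32 such genes in the role lists, 15 had a value in the ENSABRG table or as an assembled transcript named by its best protein match, and they were chosen with the lists above. VAMP2, the synaptic vesicle SNARE, was at 10.3 ± 2.28 estimated CPM in the pituitary and 53.0 ± 12.8 in the hypothalamus (SD, n = 8 each; log2 -2.37 ± 0.18, edgeR adjusted p = 1.18e-07), with 98.9% identity to its rat match. SYP, the vesicle protein synaptophysin, was at 7.80 ± 1.22 and 64.3 ± 14.6 (log2 -3.05 ± 0.16, edgeR adjusted p = 3.81e-09), with a weaker match of 58.7% identity. CADPS, which primes dense-core granules, differed by -1.43 ± 0.14 and DOC2B, a calcium sensor, by -1.90 ± 0.26, and by -1.65 ± 0.25 in the ENSABRG table. The assembled transcripts covered only a part of the matched protein, 55.0% for CADPS and 22.8% for DOC2B. Several assembled genes matched VAMP2 (3), CADPS (2) and DOC2B (2), and only that with the highest mean count is given for each.

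VAMP3, the SNARE of constitutive exocytosis, was slightly higher in the pituitary (0.23 ± 0.07, and 0.48 ± 0.08 in the ENSABRG table). SYT4, a synaptotagmin of peptide granules, differed by -0.24 ± 0.11 and by 0.07 ± 0.10 in the ENSABRG table, on either side of 0. Among syntaxins of other membranes, STX16 (-1.26 ± 0.09) and STX12 (-1.03 ± 0.10) were higher in the hypothalamus, each the more abundant of 2 assembled genes. STX12 was at -0.76 ± 0.11 in the ENSABRG table, and STX5 at -0.32 ± 0.13 in the assembled transcripts. STXBP2 (-0.02 ± 0.24) and STX4 (-0.11 ± 0.20), each known from exocytosis outside neurons, had adjusted p-values of 0.962 and 0.695 in edgeR's test. Their levels in the pituitary were 1.63 ± 0.614 and 2.36 ± 0.577 estimated CPM. Both had a weaker protein match than VAMP2, and that of STXBP2 covered only a part of the protein. STX4 was the more abundant of 2 assembled genes.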
